A study of Mus musculus with 4 samples.

Results

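The 10 genes Zbtb16, Gfra1, Id4, Uchl1, Dmrt1, Sohlh1, Dmrtb1, Rhox13, Stra8 and Esx1 mark or regulate mouse spermatogonia and the passage of these cells into meiosis. They were picked by gene name as markers of undifferentiated spermatogonia, of differentiating spermatogonia and of meiotic entry, with Kit kept out of the set. All 10 were present among the 28595 genes of the count table. Counts came from 10 µm testis sections processed by photo-isolation chemistry (PIC), in which ultraviolet light selects the area of a section whose RNA becomes a library. There were 4 groups of 3 libraries. H3t KO testes, from mice with a deletion of H3t, a histone H3 variant of the testis, were irradiated over the entire section in the first group. Wild-type testes treated in the same way formed the second. In the other two groups the light was aimed at Leydig cells only, the steroid-producing cells between the tubules, in H3t KO testes and in wild-type testes. Wild-type animals were titled young, whereas the age of the H3t KO animals and all strains are not given in the sources used. Each group was deposited as 1 sample holding 3 libraries, so preparation and group cannot be told apart, and the labels do not say whether the 3 came from separate animals. The p-values therefore measure only the spread between libraries, which may be technical.

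Spermatogonial stem cells renew themselves at the wall of the seminiferous tubule, in part under GDNF secreted by Sertoli cells, the somatic nurse cells of the tubule. When retinoic acid reaches them, undifferentiated spermatogonia begin to differentiate, and a later retinoic acid signal induces Stra8 as the cells enter meiosis. Transcription factors of the DM-domain, helix-loop-helix, zinc finger and X-linked homeobox families act along this path, some of them by holding meiosis back.

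Section libraries held 475764, 392164 and 321771 counts in H3t KO and 566527, 522652 and 247539 in wild type. Leydig-targeted libraries held 15208 to 53003 counts in H3t KO and 5947 to 54882 in wild type. The targeted gene, H3f4 in this annotation, had 0 counts in KO sections and 1 count in wild-type sections, too few to check a label. The cell make-up of the sections differed, and in such bulk sections fewer cells of a type and less RNA per cell cannot be told apart. Counts of a 12-gene spermatid list made up 0.0350% ± 0.0358 of KO section counts and 3.86% ± 1.18 of wild-type section counts (SD, n = 3 each), with Tssk1 and Gapdhs at 0 in KO sections. A 20-gene list of early meiotic prophase held 0.0397% ± 0.00909 in KO sections and 0.300% ± 0.0238 in wild-type sections, and a 10-gene pachytene list 0.0336% ± 0.0111 in KO sections and 1.15% ± 0.177 in wild-type sections. A 20-gene Sertoli cell list held 1.87% ± 0.0522 in KO sections and 0.573% ± 0.180 in wild-type sections (19 of its genes were in the table), and 17 of its 18 tested genes were called higher. A Leydig cell list held 4.02% ± 0.366 in KO sections and 0.537% ± 0.186 in wild-type sections, with all 11 tested genes called higher. Of all genes tested in sections, 30.2% were called higher. A macrophage list held 0.247% ± 0.116 in KO sections and 0.0424% ± 0.0160 in wild-type sections, and a myoid and stromal list 0.321% ± 0.0407 in KO sections and 0.135% ± 0.0307 in wild-type sections. No gene of the Sertoli, Leydig, macrophage or stromal lists in the table was at 0 in sections. The part of these shifts in the gene results below was not tested, except that sections were also scaled to their Sertoli list counts.

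**Figure D1:**
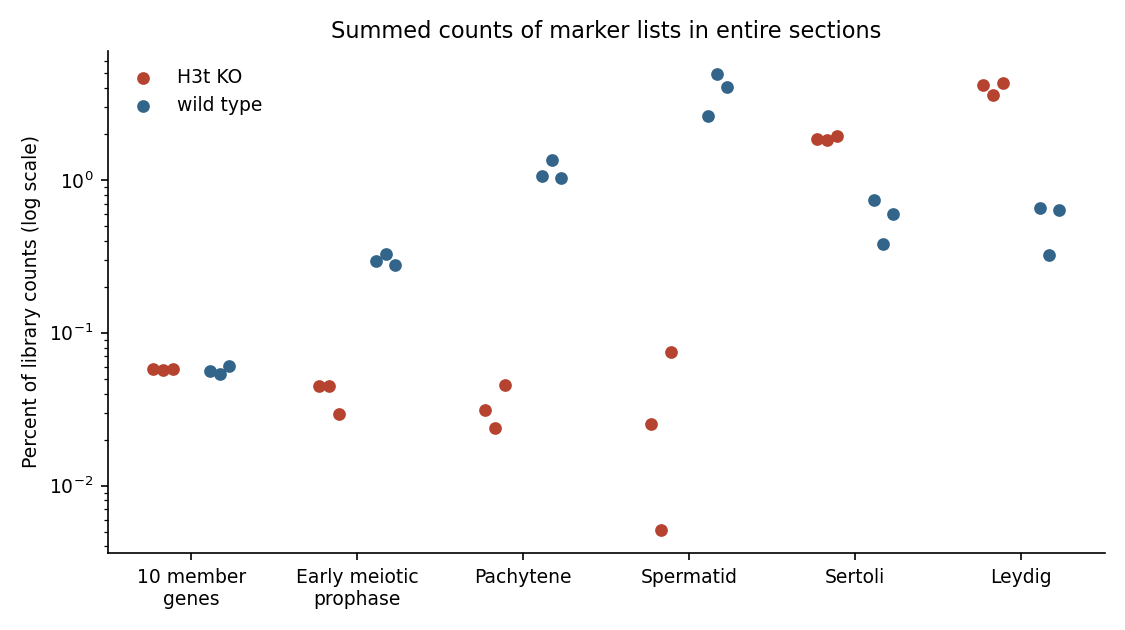
Percent of library counts (log scale) held by the 10 genes and by 5 marker lists in each section library, H3t KO left and wild type right. The 10 genes lie between 0.0538% and 0.0602% in all 6 libraries, while the meiotic and spermatid lists lie lower and the Sertoli and Leydig lists higher in every KO library than in any wild-type library.

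The region before the start of 4 of the genes is shown. Stra8 and Sohlh1, low-count genes, were picked because they held both motifs searched. Dmrtb1 had the largest decrease among the 6 tested members, and Uchl1 was the member with the most counts. No result below rests on these sequences. Each line gives the 250 bases before the RefSeq start (GRCm38.p6), read 5′ to 3′ on the gene's strand. Capitals mark AGGTCA, the core hexamer bound by retinoic acid receptors and other nuclear receptors, and ACANTGT, the core of the DM-domain motif, which is its own reverse complement. Both strands were searched. The windows are chr6:34920698-34920947 (plus strand) for Stra8, chr2:25847249-25847498 (minus) for Sohlh1, chr4:107684231-107684480 (minus) for Dmrtb1 and chr5:66675871-66676120 (plus) for Uchl1.
Stra8: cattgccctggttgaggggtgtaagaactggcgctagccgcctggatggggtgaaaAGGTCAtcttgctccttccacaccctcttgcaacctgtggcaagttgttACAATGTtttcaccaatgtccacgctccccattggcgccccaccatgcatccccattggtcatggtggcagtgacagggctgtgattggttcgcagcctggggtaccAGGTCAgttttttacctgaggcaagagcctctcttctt
Sohlh1: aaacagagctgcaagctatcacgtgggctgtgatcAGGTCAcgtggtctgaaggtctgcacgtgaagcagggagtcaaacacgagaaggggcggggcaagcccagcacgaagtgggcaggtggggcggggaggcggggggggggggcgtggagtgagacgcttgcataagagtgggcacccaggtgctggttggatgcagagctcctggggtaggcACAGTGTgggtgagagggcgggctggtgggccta
Dmrtb1: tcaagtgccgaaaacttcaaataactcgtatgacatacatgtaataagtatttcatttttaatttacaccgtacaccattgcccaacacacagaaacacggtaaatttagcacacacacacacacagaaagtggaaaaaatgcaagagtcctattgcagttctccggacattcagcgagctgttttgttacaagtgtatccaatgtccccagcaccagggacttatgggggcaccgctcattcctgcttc
Uchl1: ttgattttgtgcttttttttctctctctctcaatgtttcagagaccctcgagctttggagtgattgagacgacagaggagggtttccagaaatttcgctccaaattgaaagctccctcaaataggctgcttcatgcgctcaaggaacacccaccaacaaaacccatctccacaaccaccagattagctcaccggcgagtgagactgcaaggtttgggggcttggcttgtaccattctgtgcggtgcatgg

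In the Stra8 window AGGTCA began 194 and 38 bases before the start and ACANTGT 145 bases before it. In the Sohlh1 window AGGTCA began 215 and ACANTGT 34 bases before the start. The other 6 members with a window, Gfra1, Id4, Uchl1, Dmrtb1, Rhox13 and Esx1, held neither string. A second Dmrtb1 window (chr4:107683590-107683839, minus strand), not shown, held neither as well. Zbtb16 and Dmrt1 had no window. The Stra8 window lies inside the GENCODE gene, which begins at 34920163. Of 32851 RefSeq windows of this length, 14.0% held AGGTCA, 6.47% held ACANTGT and 0.938% held both. A match describes letters in the window and is not evidence of binding.

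As a share of all counts the 10 genes together overlapped between the genotypes. The share that each gene took of their summed counts did not overlap, except for Zbtb16 and Rhox13. The Sohlh1 share rested on only 12 counts in KO sections and 7 in wild-type sections. By CPM, 40.0% of the 25539 genes with a count in sections, at any count level, did not overlap between the genotypes. The 10 genes summed to 575.9, 568.6 and 578.1 CPM (counts scaled to library size) in KO sections and to 561.3, 537.6 and 601.9 CPM in wild-type sections, so the ranges overlapped. With TMM scaling, which trims genes with extreme differences before libraries are matched, the sums were 532.9, 482.9 and 562 in KO sections and 567, 633.4 and 661.9 in wild-type sections, without overlap. As shares of these summed counts, Uchl1 made up 56.2%, 51.6% and 64.0% in KO sections and 24.5%, 13.2% and 16.8% in wild-type sections. Dmrtb1 made up 1.10%, 0.897% and 1.08% in KO sections and 30.2%, 48.4% and 32.2% in wild-type sections. Dmrt1 took 13.9% ± 5.38 in KO sections and 4.07% ± 1.25 in wild-type sections (SD, n = 3 each). Id4 took 7.83% ± 1.75 in KO sections and 17.7% ± 6.91 in wild-type sections, and Esx1 6.64% ± 2.59 in KO sections and 12.7% ± 0.990 in wild-type sections. These shares are of counts, not of transcripts per length, and do not depend on how libraries are scaled. Shares of 1 sum are tied to each other, so a larger share of Uchl1 leaves less for the others.

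**Figure D2:**
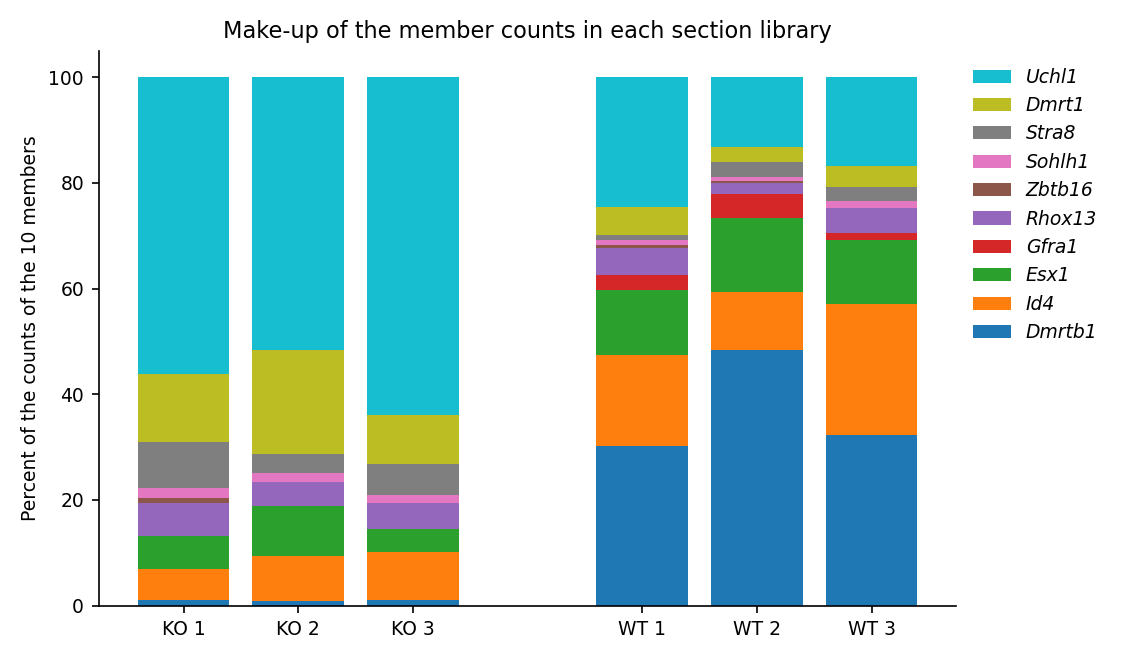
Share of the summed counts of the 10 genes held by each gene in the 3 H3t KO and 3 wild-type section libraries. Uchl1 fills 51.6% to 64.0% of each KO bar and 13.2% to 24.5% of each wild-type bar, and Dmrtb1 0.897% to 1.10% of KO bars and 30.2% to 48.4% of wild-type bars.

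Taken gene by gene, CPM in KO and wild-type sections did not overlap for 8 of the 10: Uchl1, Dmrt1, Stra8 and Sohlh1 lay higher and Dmrtb1, Id4, Esx1 and Gfra1 lower in KO. Among the 25539 genes with a count in sections, 19.0% lay higher and 21.0% lower without overlap (40.0% in all). Most of these genes had too few counts for the test below, which took 7907. Genes with few counts separate less readily, so the 40.0% is not a share at the members' counts. For the test, a gene needed about 23.0 CPM in at least 3 libraries, and 6 of the 10 passed (Id4, Uchl1, Dmrt1, Dmrtb1, Esx1 and Rhox13). By edgeR's quasi-likelihood test with Benjamini-Hochberg adjustment over 7907 genes, 2 of them were called higher, Uchl1 and Dmrt1 (neither of them with scaling to Sertoli list counts), and 3 lower, Dmrtb1, Id4 and Esx1, at an adjusted p under 0.05. The same calls covered 30.2% of all genes as higher and 36.0% as lower (66.2% in all), so most genes of the table were called. The median log2 fold change was -0.48 over the 6 tested members and -0.04 over all genes tested. Under scaling to the Sertoli list, higher calls were 6.45% of all calls instead of 45.6%, and the median of all genes moved by -1.50 on the log2 scale. A member passes the filter through whichever genotype holds more of it, and 4 members were too low to be tested, so these counts do not describe all 10.

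**Figure D3:**
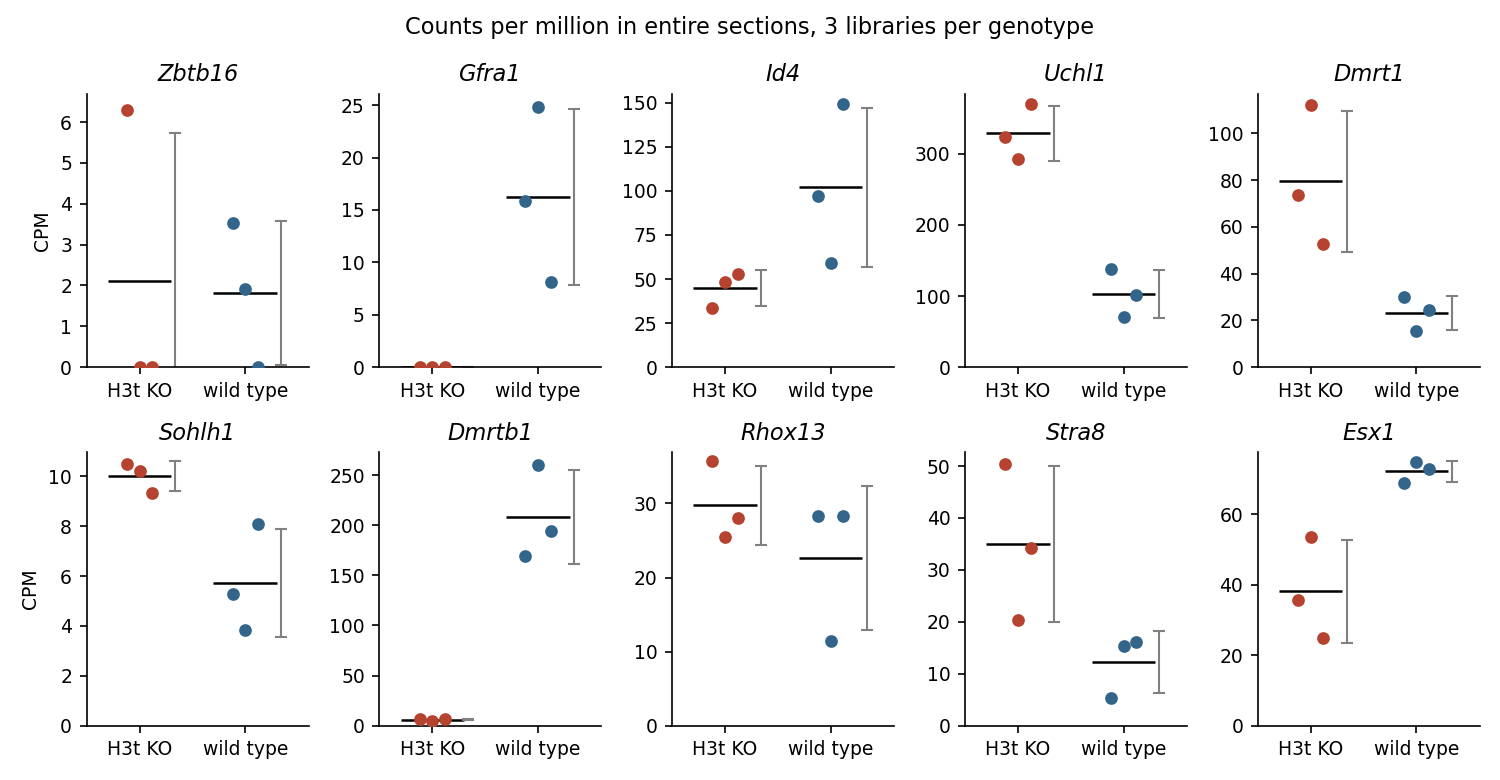
CPM of each gene in the 3 H3t KO libraries (left) and 3 wild-type libraries (right) of entire sections, on axes that start at 0 and differ between panels. Points are libraries, horizontal lines group means and bars ± SD; Dmrtb1 lies at 5.10 to 6.31 CPM in KO and 169.5 to 260.2 CPM in wild type, whereas Rhox13 and Zbtb16 overlap.

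Among the members that mark undifferentiated spermatogonia, Gfra1 and Id4 were lower and Uchl1 was higher in KO sections, the last with no difference called when libraries were scaled to Sertoli list counts. The wider path was mixed. Ret (14 counts in KO sections and 2 in wild-type sections), Lin28a (32 and 18) and Sall4 (60 and 36) lay higher in KO without overlap. Elavl2 (11 and 25) lay lower without overlap, while Lin28b (4 and 6) and Bcl6b (3 and 4) overlapped. Of these only Sall4 was tested, and it was not called. Zbtb16 (PLZF), a zinc finger transcription factor needed for stem cell maintenance, had 3, 0 and 0 counts in KO sections and 2, 1 and 0 in wild-type sections, and was at the limit of detection in both. Gfra1, the receptor that binds GDNF, had no count in the KO sections and 9, 13 and 2 counts in the wild-type sections. Every KO library was therefore below every wild-type library, and Gfra1 was at least 7.12-fold lower in KO when its KO sum was set to the floor of 3 counts. It was below the filter of the test; without a filter on low counts its adjusted p in edgeR's quasi-likelihood test was 3.68e-06. Gfra1 (chromosome 19, 58235604 to 58455909, minus strand, GRCm38) overlaps an antisense gene, Gm16277, on the other strand.

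Id4, an inhibitor of helix-loop-helix factors that marks stem cells of the mouse testis, had 33.6, 48.5 and 52.8 CPM in KO sections and 97.1, 59.3 and 149.5 CPM in wild-type sections. All 3 KO libraries lay below the lowest wild-type library, although wild-type library 2 came close to them. Id4 fell by 1.39 ± 0.37 (SE) on the log2 scale, with adjusted p = 0.00166 in edgeR's quasi-likelihood test. Its exons (chromosome 13, 48261228 to 48266026, plus strand) overlap the antisense gene A330033J07Rik, which had 1 count in KO sections and 0 in wild-type sections.

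Uchl1, a ubiquitin hydrolase of spermatogonia that is also abundant in neurons, moved the other way. It had 323.7, 293.2 and 369.8 CPM in KO sections and 137.7, 70.8 and 101.0 CPM in wild-type sections. The lowest KO library was above the highest wild-type library. The log2 fold change was 1.43 ± 0.30 (adjusted p = 1.67e-04, edgeR's quasi-likelihood test), but -0.04 ± 0.32 (adjusted p = 0.910) when libraries were scaled to their Sertoli list counts. A 12-gene nerve and Schwann cell list, of which 10 genes were in the table, held 0.0107% ± 0.00399 of counts in KO sections, from 0.00746% to 0.0151%, and 0.00689% ± 0.00354 in wild-type sections, from 0.00383% to 0.0108% (SD, n = 3 each). Gap43 of that list was at 0 in KO sections. The part of nerve cells in the Uchl1 result was not tested. Uchl1 (chromosome 5, 66676091 to 66687234, plus strand) overlaps Uchl1os on the other strand, which had 1 count in KO sections and 0 in wild-type sections.

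Dmrt1, a DM-domain factor made in spermatogonia and Sertoli cells that keeps spermatogonia from entering meiosis, was also higher. It had 73.6, 112.2 and 52.8 CPM in KO sections and 30.0, 15.3 and 24.2 CPM in wild-type sections, and the genotypes did not overlap. Its log2 fold change was 1.52 ± 0.39 (adjusted p = 0.00133, edgeR's quasi-likelihood test) and 0.08 ± 0.42 (adjusted p = 0.874) with scaling to Sertoli list counts. Per 1000 counts of the Sertoli list, Dmrt1 had 4.27 ± 1.71 counts in KO sections and 4.04 ± 0.0305 in wild-type sections (SD, n = 3 each). Dmrt1 lies on chromosome 19 (25505618 to 25604329, plus strand).

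Sohlh1, a helix-loop-helix factor that drives spermatogonial differentiation, had 5, 4 and 3 counts in KO sections and 3, 2 and 2 in wild-type sections. Its CPM did not overlap, at 10.5, 10.2 and 9.32 in KO and 5.30, 3.83 and 8.08 in wild type. The ratio of pooled CPM was 1.93 with an exact 95% counting interval of 0.699 to 5.77, so a difference was not detectable at this depth.

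Dmrtb1 (Dmrt6), a DM-domain factor that coordinates the switch from spermatogonial mitosis to meiosis, was almost missing from the KO sections. It had 6.31, 5.10 and 6.22 CPM in KO sections, on 3, 2 and 2 counts, and 169.5, 260.2 and 193.9 CPM in wild-type sections. It fell by 5.35 ± 0.45 on the log2 scale, or 40.8-fold, with adjusted p = 1.26e-10 in edgeR's quasi-likelihood test. Per 1000 Sertoli list counts the values were 0.313 ± 0.0321 in KO sections and 41.2 ± 23.8 in wild-type sections (SD, n = 3 each), and the log2 fold change on that scaling was -6.91 ± 0.58. The gene lies on chromosome 4 (107676290 to 107684230, minus strand).

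Stra8, the retinoic acid-induced factor that starts the meiotic programme, was not lost. It had 24, 8 and 11 counts in KO sections (50.5, 20.4 and 34.2 CPM) and 3, 8 and 4 counts in wild-type sections (5.30, 15.3 and 16.2 CPM). All KO libraries lay above all wild-type libraries, with KO library 2 closest to them. The ratio of pooled CPM was 3.22 (exact 95% counting interval 1.75 to 6.24). Stra8 fell below the filter; with the minimum count lowered to 5, its log2 fold change was 1.21 ± 0.54 (adjusted p = 0.0516, edgeR's quasi-likelihood test), which missed the threshold. In fits that left out a library and let Stra8 pass the filter, the adjusted p was 0.0134 without KO library 2, 0.0166 without wild-type library 2, 0.0576 without wild-type library 3 and 0.315 without wild-type library 1. Per 1000 Sertoli list counts Stra8 had 1.87 ± 0.811 in KO sections and 2.48 ± 1.66 in wild-type sections (SD, n = 3 each).

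Of the 2 X-linked homeobox genes Esx1 was called lower and Rhox13 was not called, and the difference between them was not tested. Rhox13, a homeobox gene of differentiating spermatogonia and early spermatocytes, had 35.7, 25.5 and 28.0 CPM in KO sections and 28.2, 11.5 and 28.3 CPM in wild-type sections, with overlap. Its log2 fold change was 0.21 ± 0.43 (adjusted p = 0.682, edgeR's quasi-likelihood test) and -1.23 ± 0.40 (adjusted p = 0.0139) with scaling to Sertoli list counts. Esx1, a homeobox gene of male germ cells and placenta, had 35.7, 53.6 and 24.9 CPM in KO sections and 68.8, 74.6 and 72.7 CPM in wild-type sections. The genotypes did not overlap, and Esx1 fell by 1.17 ± 0.36 on the log2 scale (adjusted p = 0.00539). Both genes lie on the X chromosome, Rhox13 at 38121219 to 38129967 (plus strand) and Esx1 at 137115397 to 137122083 (minus strand).

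**Figure D4:**
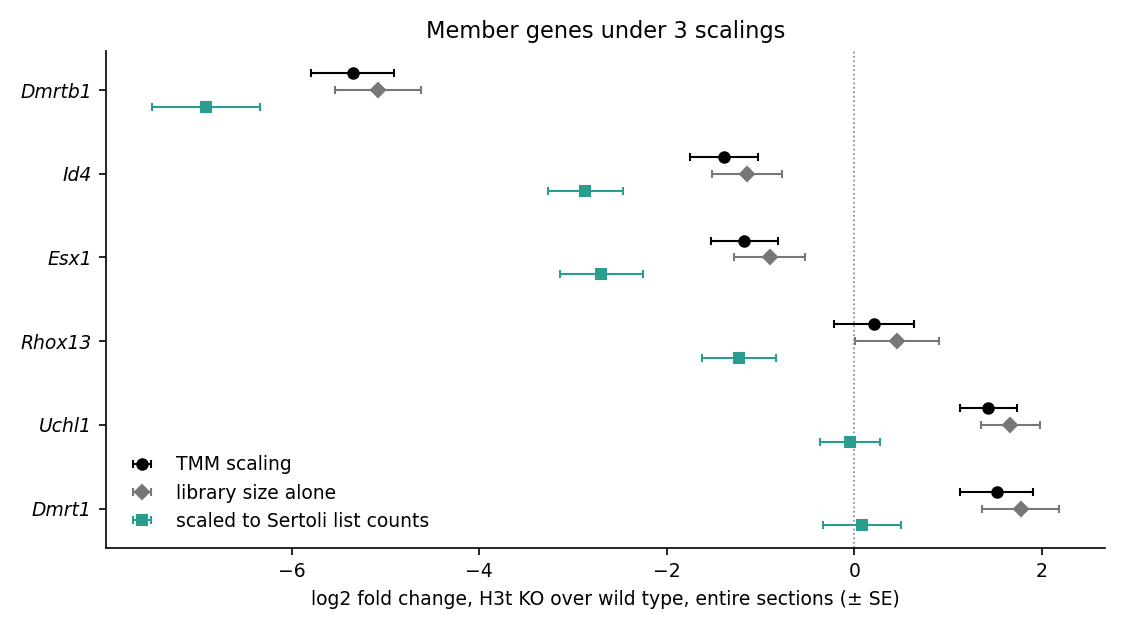
Log2 fold change (± SE) of the 6 tested genes, H3t KO over wild type, under TMM scaling, library size alone and scaling to Sertoli list counts. Dmrtb1, Id4 and Esx1 lie below 0 under all 3; Uchl1 is at 1.43 with TMM and -0.04 with Sertoli scaling, Dmrt1 at 1.52 and 0.08, and Rhox13 at 0.21 and -1.23.

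Against the Sertoli list, which is made of markers of the cells that line the same tubules, no member was called higher in KO sections and 4 were called lower: Dmrtb1, Id4, Esx1 and Rhox13. On that scaling 4.33% of all 7907 genes tested were called higher and 62.7% lower (67.1% in all), so the members' share of lower calls was near that of all genes. Uchl1 had 17.5 ± 1.58 counts per 1000 Sertoli list counts in KO sections and 18.0 ± 0.967 in wild-type sections. Id4 had 2.40 ± 0.505 in KO sections and 17.9 ± 6.29 in wild-type sections, and Esx1 had 2.05 ± 0.822 in KO sections and 13.7 ± 5.27 in wild-type sections. All 10 genes together had 30.7 ± 0.658 per 1000 in KO sections and 105.9 ± 32.7 in wild-type sections (SD, n = 3 each). The Sertoli list share itself differed between the genotypes, and what part of that is cell number was not tested.

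Other genes of the same path were split in the same sections. Of 49 genes for spermatogonial maintenance, differentiation and meiotic entry, 44 were in the table and 16 were tested. In KO, 6 were called higher and 4 lower, and the median log2 fold change was 0.72, against -0.04 over all genes. Over all genes tested, 30.2% were called higher and 36.0% lower (66.2% in all), so the path's calls in all were near that share. Ddx4, a germ cell RNA helicase, averaged 21.9 ± 5.35 CPM in KO sections and 238.2 ± 59.7 CPM in wild-type sections, a fall of 3.71 ± 0.36 on the log2 scale (adjusted p = 1.67e-09, edgeR's quasi-likelihood test). Meioc, which keeps cells in meiotic prophase, averaged 3.44 ± 1.53 CPM in KO sections and 41.9 ± 9.15 CPM in wild-type sections. Tex101, a germ cell surface protein, fell by 2.97 ± 0.46, and Stk31, a germ cell kinase, by 2.71 ± 0.51. The Stk31 log2 fold change was -2.09 without KO library 1.

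The 6 higher genes included Kit, the receptor of differentiating spermatogonia, which averaged 210.7 ± 84.6 CPM in KO sections and 26.5 ± 1.70 CPM in wild-type sections, with a log2 fold change of 2.73 ± 0.36 (adjusted p = 3.02e-07, edgeR's quasi-likelihood test). Kit also had 81 counts in KO Leydig-targeted libraries and 2 in wild-type Leydig-targeted libraries, and the part of Leydig cells in its section value was not tested. The laminin receptor subunits Itga6 and Itgb1, used to enrich stem cells, had log2 fold changes of 2.15 ± 0.41 and 1.32 ± 0.30. Ccnd2, a cyclin of dividing spermatogonia, was at 1.65 ± 0.38, and Adgra3, an adhesion receptor of spermatogonial progenitors, at 1.58 ± 0.31. Etv5, a transcription factor downstream of GDNF that is also made in Sertoli cells, was at 1.08 ± 0.37 (adjusted p = 0.0121), and lost its call without wild-type library 2 (adjusted p = 0.0819) or wild-type library 3 (adjusted p = 0.0908). Counts in KO and wild-type Leydig-targeted libraries were 7 and 0 for Itga6, 43 and 8 for Itgb1, and 10 and 1 for Ccnd2. For Adgra3 they were 15 and 6, and for Etv5 6 and 0. The part of Leydig cells in the section values of these genes was not tested. With scaling to Sertoli list counts only Kit of the 6 remained called higher (1.24 ± 0.45), while Itgb1 was at -0.12 and Etv5 at -0.33. The 6 genes not called were Foxo1, Crabp1, Sall4, Dazl, Taf4b and Tspan8, with adjusted p between 0.0554 and 0.354. Some of these calls depended on the fit: Foxo1 (0.74 ± 0.29, adjusted p = 0.0183) and Crabp1 (0.77 ± 0.35, adjusted p = 0.0382) were called higher with a replicate block, which gave 8 higher path genes, and Foxo1, Crabp1 and Sall4 with library size alone, which gave 9. Foxo1 was also called higher without KO library 2 (adjusted p = 0.0487), and Dazl was called lower without wild-type library 3 (-0.93 ± 0.36, adjusted p = 0.0276). With scaling to Sertoli list counts Dazl (adjusted p = 4.22e-04) and Tspan8 (adjusted p = 0.0470) were called lower. Path genes below the filter were also called in some edgeR fits. Without a filter Cd9 was called higher (2.79 ± 0.66, adjusted p = 1.46e-04), and Rbm46 (adjusted p = 0.00125) and Rec8 (adjusted p = 0.0430) lower. With a minimum count of 5, Rbm46 (adjusted p = 0.00152) and Elavl2 (adjusted p = 0.0212) were called lower. Cd9 was also called higher without KO library 3 or any 1 wild-type library.

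**Figure D5:**
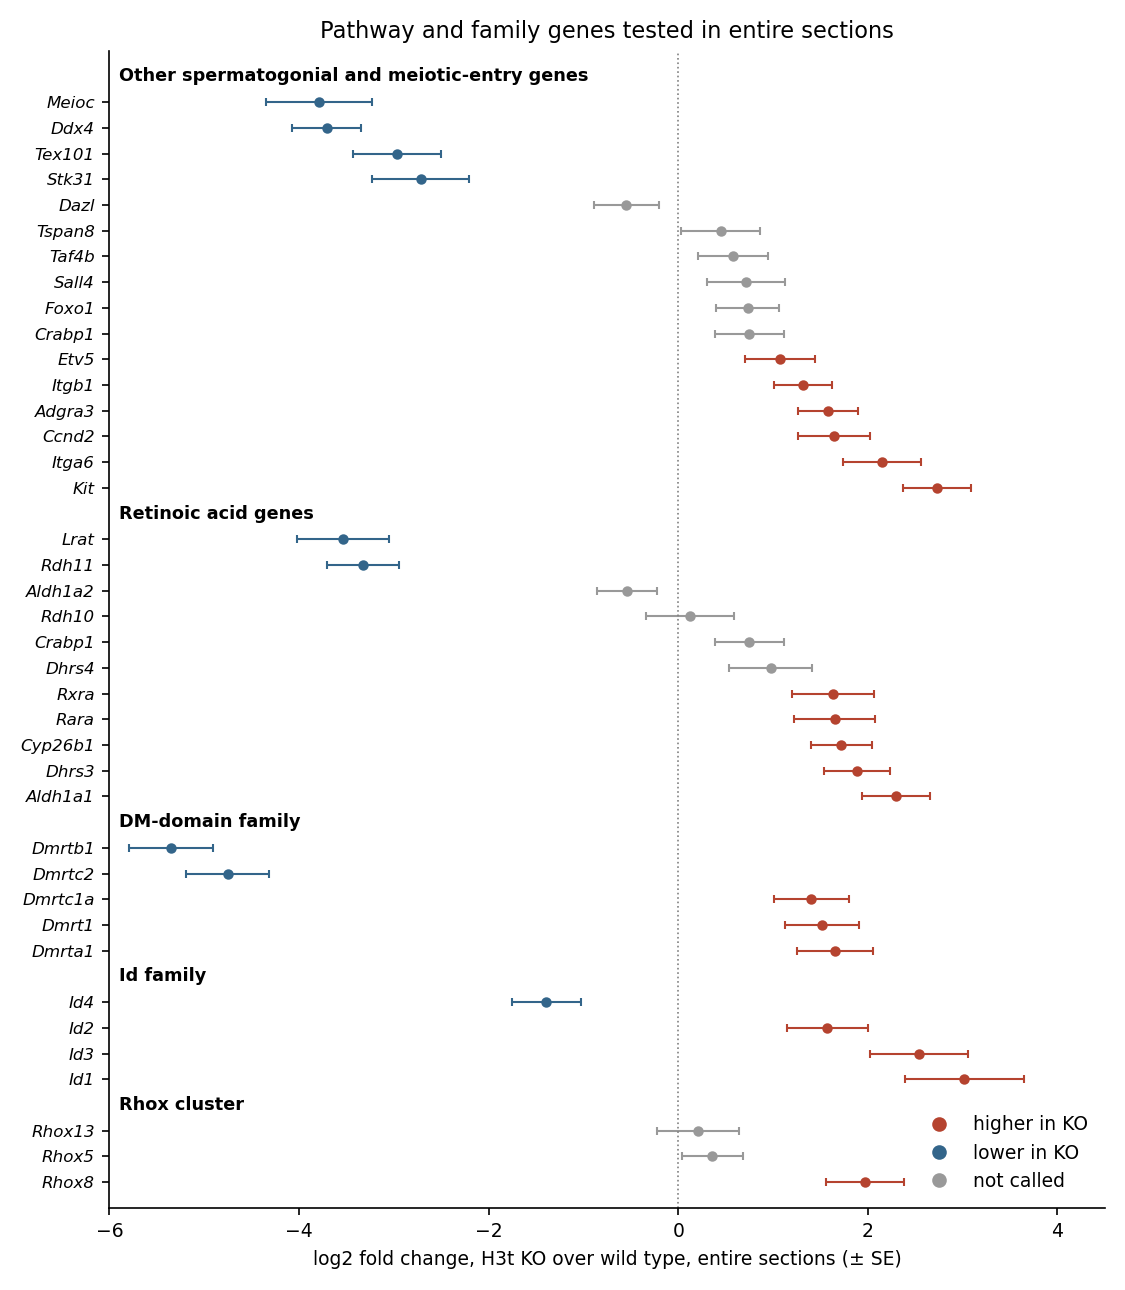
Log2 fold change (± SE), H3t KO over wild type in entire sections, of tested genes of the wider path, the retinoic acid list and the DM-domain, Id and Rhox families under TMM scaling, coloured by call. Higher and lower calls occur in 4 of the 5 lists. Itgb1, Etv5, Tspan8 and Rhox13 are among the genes that change sign when libraries are scaled to Sertoli list counts.

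Retinoic acid genes were tested because retinoic acid induces Stra8. Of 21 genes, 20 were in the table and 12 tested. Of these, 6 were called higher and 2 lower, with a median log2 fold change of 1.30. Over all genes tested, 30.2% were called higher and 36.0% lower (66.2% in all), so the list's calls in all were near that share. Aldh1a1, an enzyme that makes retinoic acid, averaged 5736 ± 811.8 CPM in KO sections and 983.2 ± 264.2 CPM in wild-type sections (2.30 ± 0.36). It missed the threshold with scaling to Sertoli list counts (0.81 ± 0.39, adjusted p = 0.0829). Pooled CPM of Aldh1a1 in KO was 8601 in Leydig-targeted libraries and 5833 in sections, a ratio of 1.475. In wild type it was 3159 and 1011, a ratio of 3.126. Libraries did not overlap in either genotype, but none of the 8 list genes tested there was called higher in Leydig-targeted libraries. The part of Leydig cells in the Aldh1a1 section value was not tested. Lrat, which stores retinol as ester, fell by 3.53 ± 0.49, and Rdh11, a retinal reductase, by 3.33 ± 0.38, each under an adjusted p of 5.17e-07 or less in edgeR's quasi-likelihood test. The Lrat log2 fold change was -4.57 without KO library 3, the KO library with the most Lrat at 28.0 CPM. The retinoic acid list held 0.692% ± 0.0822 of counts in KO sections and 0.162% ± 0.0341 in wild-type sections (SD, n = 3 each), of which Aldh1a1 gave 6939 of 8349 counts in KO sections and 1351 of 2206 in wild-type sections.

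The family relatives of Dmrt1, Dmrtb1, Id4 and Rhox13 were examined in the same sections, where 66.2% of all genes tested were called. All 5 tested DM-domain genes were called. Dmrtc2 (Dmrt7), a factor of pachytene spermatocytes, averaged 10.0 ± 8.67 CPM in KO sections and 246.4 ± 10.6 CPM in wild-type sections, and fell by 4.75 ± 0.44 on the log2 scale, beside the fall of Dmrtb1. Dmrta1 averaged 143.9 ± 16.2 CPM in KO sections and 40.1 ± 28.3 CPM in wild-type sections and was higher by 1.65 ± 0.40, beside Dmrt1; under scaling to Sertoli list counts neither Dmrta1 (0.27 ± 0.45, adjusted p = 0.613) nor Dmrt1 was called. The fifth, Dmrtc1a, was called higher. Of the 4 Id genes, Id4 was called lower and Id1, Id2 and Id3 higher. Id1, Id2 and Id3 act as helix-loop-helix inhibitors in many somatic cells. Id3 averaged 42.7 ± 18.2 CPM in KO sections and 6.27 ± 3.79 CPM in wild-type sections (2.54 ± 0.52), and Id2 averaged 67.9 ± 13.3 CPM in KO sections and 21.2 ± 13.3 CPM in wild-type sections (1.57 ± 0.43). Id1 had 37 counts in KO sections and 4 in wild-type sections, all 4 in wild-type library 1, with a log2 fold change of 3.02 ± 0.63 that was 6.42 without that library. Under Sertoli scaling Id1 stayed called higher (1.65 ± 0.68, adjusted p = 0.0451), and Id2 and Id3 stayed positive but were not called. Among the Rhox genes, 15 of 33 were in the table and 3 tested. Rhox8, also a Sertoli list gene, averaged 88.0 ± 30.7 CPM in KO sections and 18.1 ± 5.90 CPM in wild-type sections (1.97 ± 0.41) but was not called under Sertoli scaling (0.52 ± 0.43, adjusted p = 0.299). Rhox5, a Sertoli list gene too, had a log2 fold change of 0.36 ± 0.32 and Rhox13 one of 0.21 (both not called).

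For each tested member, the 2 named genes with the most similar profile over the 6 section libraries were found by the root mean square difference of mean-centred log2 CPM, among 7114 genes. The profile of Dmrtb1 was nearest to Saxo2 (0.0935) and Ctag2 (0.0956), that of Uchl1 to Pip5k1c (0.0740) and Cr1l (0.0849), and that of Dmrt1 to Itpr1 (0.0726) and Rheb (0.124). Id4 was nearest to Fbxw9 (0.137) and Kcnq1ot1 (0.175), Esx1 to Nup214 (0.0871) and Upf2 (0.0929), and Rhox13 to G3bp1 (0.0872) and Slc44a2 (0.119). A prior count of 2 was added before the log, which narrows distances between genes near 0: Saxo2 and Ctag2 had no count in KO sections, where Dmrtb1 had 7, so a small distance there does not show falls of equal size.

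Leydig-targeted libraries held few transcripts of the 10 genes, 12, 9 and 1 counts in KO and 16, 13 and 0 in wild type, so only large differences could be detected. The Leydig cell list, by contrast, held 7.20% ± 0.732 of KO and 2.28% ± 0.838 of wild-type Leydig-targeted counts (SD, n = 3 each). Wild-type library 3 had 5947 counts in all and none of these genes. Dmrt1, Stra8 and Sohlh1 had no count in any of the 6 Leydig-targeted libraries. Gfra1, at 0 in KO sections, had 0, 1 and 0 counts in KO and 2, 2 and 0 in wild-type Leydig-targeted libraries, and was not tested. Dmrtb1 was the member with the most wild-type counts, with 0, 0 and 0 counts in KO libraries and 11, 6 and 0 in wild-type libraries. It was at least 6.97-fold lower in KO, with the KO sum set to 3 counts (adjusted p = 3.74e-04, edgeR's quasi-likelihood test of all 12 libraries), with wild-type library 3 at 0 as in KO. Dmrtb1 was 1 of 4 members tested there, and 20.9% of the 5182 genes tested were called lower and 7.55% higher (28.5% in all). Id4, Uchl1 and Esx1 were not called, and had 5, 9 and 4 counts in KO and 2, 2 and 3 in wild type. Fitted in all 12 libraries the genotype by region interaction was not called for any of the 4 (adjusted p 0.535 to 0.958, and the lowest unadjusted p was 0.0725 for Id4); it was called as positive for 0.193% and as negative for 0.135% of genes (0.328% in all).

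Leydig-targeted libraries were also set against entire sections of the same genotype. In KO, Uchl1 had 9 counts in Leydig-targeted libraries and 388 in sections, a ratio of pooled CPM of 0.256 (exact 95% counting interval 0.116 to 0.491). It was lower in Leydig-targeted libraries, with a log2 fold change of -2.23 ± 0.64 (adjusted p = 0.0173, edgeR's quasi-likelihood test), and 3.53% of genes were called lower and 1.91% higher in that comparison (5.44% in all). The call was lost without KO section library 3 (adjusted p = 0.0686) or KO Leydig-targeted library 2 (adjusted p = 0.0545), and without KO Leydig-targeted library 1, which held 8 of the 9 counts, the log2 fold change was -4.54. Dmrt1 in KO was at least 2.90-fold lower in Leydig-targeted libraries, with 0 counts there and 96 in sections, and Stra8 at least 1.30-fold lower, with 0 counts there and 43 in sections; neither was tested. In wild type, Id4 had 2 counts in Leydig-targeted libraries and 123 in sections. It was called lower in Leydig-targeted libraries (log2 fold change -2.64 ± 0.96, adjusted p = 0.0425), as were 12.4% of genes against 3.22% called higher (15.6% in all), but was not called in 8 of 11 alternatives: with a replicate block (adjusted p = 0.0763), library size alone (0.153), RLE factors (0.0508) or DESeq2 (0.0854), and without KO Leydig-targeted library 2 (0.0754) or 3 (0.0709) or wild-type Leydig-targeted library 2 (0.107) or 3 (0.165). Without wild-type Leydig-targeted library 1, which held both counts, its log2 fold change was -7.82. Uchl1 in wild type had 2 counts in Leydig-targeted libraries and 140 in sections and was not called (-2.65 ± 1.01, adjusted p = 0.0524), although leaving out KO Leydig-targeted library 1 or wild-type Leydig-targeted library 2 brought its adjusted p to 0.0244 and 0.0200. Dmrtb1 in wild type had 17 counts in Leydig-targeted libraries and 280 in sections, a ratio of 0.926 (0.532 to 1.51), and the meiotic and spermatid lists also had counts there, 184 and 1869 in wild-type Leydig-targeted libraries; their part in the Dmrtb1 value was not tested.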

How the data were processed

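Mouse testis sections of H3t KO and wild-type genotype were measured by photo-isolation chemistry. The deposited table holds raw counts per gene, not normalized by the authors. The submitters' processing notes name the tools HISAT2, featureCounts, Trim Galore and UMI-tools, and the build GRCm38. Tool versions, their order and whether strand was used are not stated there, and reads of a gene and its antisense partner cannot be separated. All 28595 gene IDs matched GENCODE M21, the source of coordinates.

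Section counts of the 6 libraries were tested with edgeR 4.0.16 in R 4.3.3 (quasi-likelihood, TMM scaling). A minimum count of 10 meant about 23.0 CPM in at least 3 libraries there and 66.1 CPM in the fit of all 12 libraries, which gave the Leydig-targeted, region and interaction results. Standard errors are the log2 fold change divided by the root of the F statistic. Calls use an adjusted p under 0.05. Exact 95% counting intervals and floors of 3 counts over a group cover counting error only. The steps were run on simulated counts with a single fixed spread, few changed genes, all well above the floor, and as many rises as falls. Real sections had most genes called and members at low counts, so that run does not show how the steps perform here.

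The 10 genes and 13 further lists were chosen with earlier results of these data known. Named genes were the 10 members, up to 12 called genes of the wider path by p, up to 4 called genes of each other family list, and 2 nearest profiles a member. A further gene that the rule names is not reported here. Dmrtc1a, the genes not called, the path genes below the filter and Rhox5 were named after their values were seen. Same-numbered section libraries deviated weakly together (correlations across genes 0.194, 0.125 and 0.150). The labels do not say that the numbers pair libraries, and the main fit took no account of pairing. Alternatives were library size alone, RLE factors, DESeq2 1.42.0, scaling to Sertoli list counts, a minimum count of 5, no filter, a replicate block, all 12 libraries and leaving out each library.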

Additional observations from a re-analysis of the deposited data

How the results depend on the processing

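Outside scaling to Sertoli list counts, the 5 section calls of the members held under every alternative in which the gene was tested: log2 fold changes spanned 1.18 to 1.78 for Dmrt1 (largest adjusted p = 0.0203), 1.11 to 1.66 for Uchl1, -5.74 to -5.08 for Dmrtb1, -1.71 to -1.14 for Id4 and -1.51 to -0.90 for Esx1. With Sertoli scaling, 0 members were called higher in sections in place of 2 and 4 lower in place of 3, and 1 path gene was called higher in place of 6. Genes whose sign turned included Uchl1 (-0.045), Rhox13 (-1.23), Itgb1 (-0.12), Etv5 (-0.33) and Tspan8 (-0.997). Leaving out each library, Rhox13 spanned -0.14 (without wild-type section library 2) to 0.28. In the fit of all 12 libraries 1 member was called higher in sections, since Dmrt1 was not tested there. The median of all genes moved by 0.25 with library size alone and by -0.17 with RLE factors. The summed CPM of the members averaged 525.9 ± 40.0 in KO and 620.8 ± 48.7 in wild type after TMM scaling. With a replicate block, 2 members were called higher and 3 lower in sections and no named gene lost its section call, while 8 path genes were called higher in place of 6. Same-numbered Leydig-targeted libraries of the 2 genotypes did not deviate together (correlations -0.00357, 0.00818 and -0.00629). In the 12-library fit the block left 0 members lower in the wild-type region comparison. That count was also 0 with library size alone, RLE factors and DESeq2 and 2 without a filter. Without a filter 2 members were lower in the KO region comparison. The 6 Leydig-targeted libraries alone left no member to test, so 0 were lower. Etv5 was not called with DESeq2 (adjusted p = 0.0687) or in all 12 libraries (0.136). Leaving out each library gave 2 to 3 members higher and 3 lower in sections, 6 to 7 path genes higher and 4 to 5 lower, 1 member lower in Leydig-targeted libraries, and 0 to 2 lower in each region comparison. Of 357 alternative values of named genes in sections, 339 kept their direction and side of the threshold, and of 194 counts 169 stayed within 1.5 times. Depth limits Zbtb16, Sohlh1 and all Leydig-targeted values.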
